A study of Mus musculus with 6 samples.

Results

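The relaxin family genes Insl3, Rln1, Insl5 and Insl6, the receptor genes Rxfp1 and Rxfp2, and Jak3, the neighbour of Insl3, were followed in MA-10 cells after depletion of COUP-TFII. Every probe set whose deposited annotation names 1 of these 7 genes was taken, which gave 6 probe sets of 35556 on the array. Of these, 5 name a single gene, and 1 names both Insl3 and Jak3, so that neither of these 2 genes has a probe set of its own. MA-10 is a steroid-producing mouse Leydig tumour line. The study asked which transcripts change when COUP-TFII is depleted, the product of Nr2f2 and a nuclear receptor with no established natural ligand. The groups were 3 cultures given an siRNA against COUP-TFII and 3 cultures given a control siRNA, all MA-10 cells in the same serum-containing medium, each transfected for 48 h and labelled as biological replicates. MA-10 is 1 tumour cell line, so the gubernaculum, on which INSL3 acts in an animal, is not in these cultures, and no siRNA sequence was used here.

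Relaxin family peptides are small secreted hormones related to insulin, made as precursors that are cut into an A and a B chain. INSL3 is a main peptide hormone of Leydig cells, and through its receptor RXFP2 on the gubernaculum it drives the abdominal phase of testicular descent in mice. Relaxin, the product of Rln1 in mice, acts through RXFP1, and both receptors couple to G proteins that change cAMP. INSL5 is known as a gut hormone acting on RXFP4, and INSL6 is made mainly by male germ cells, where mice need it for normal sperm production. JAK3 is the tyrosine kinase bound to the common gamma chain of cytokine receptors and is best known from lymphocytes. COUP-TFII and the steroidogenic factor SF-1 have been reported to act on the Insl3 promoter in mouse Leydig cell lines.

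In the RefSeq gene table (GRCm38.p6, used for names and gene order), Insl3 lies wholly inside the span of Jak3 and both genes end at the same base. The shared probe set 10572693, placed on chromosome 8 band B3.3 by the deposited annotation, lists 21 transcripts, of which 18 are assigned to Jak3 and 3 to Insl3. Its symbol column gives Jak3 alone. A value of this probe set can therefore stand for Insl3, for Jak3 or for a mix of both in unknown shares. Opposite changes of the 2 transcripts could offset each other in it. The promoters of both genes, from RefSeq, are shown because either could feed the signal of the probe set. Both lie on the plus strand and each is the 250 bases before the annotated start. The letters AAGGTC, part of the SF-1 and NR4A motifs named below, are in capitals on either strand.
Insl3, chr8:71689002-71689251: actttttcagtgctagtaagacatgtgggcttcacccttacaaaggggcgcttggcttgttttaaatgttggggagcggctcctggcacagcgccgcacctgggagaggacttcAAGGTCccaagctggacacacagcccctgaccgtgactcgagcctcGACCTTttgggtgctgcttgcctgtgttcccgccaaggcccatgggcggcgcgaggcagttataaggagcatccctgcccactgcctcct
Jak3, chr8:71676133-71676382: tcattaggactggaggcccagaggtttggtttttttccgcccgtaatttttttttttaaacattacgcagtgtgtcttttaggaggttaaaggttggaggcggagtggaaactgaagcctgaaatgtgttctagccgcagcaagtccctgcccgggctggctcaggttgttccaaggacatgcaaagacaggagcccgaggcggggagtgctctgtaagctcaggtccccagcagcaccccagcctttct
The Insl3 window holds AAGGTC at 2 places, which begin 136 and 90 bases before the start, the second on the opposite strand, and the Jak3 window holds it at 0 places. This string was chosen after the sequences were seen. Of 32851 promoter windows of the same length, 10.6% hold it at least once and 0.673% at least at 2 places. Further motifs were searched on both strands, namely AGGTCA (the hexamer bound by nuclear receptors, COUP-TFII included), TCAAGGTCA and CCAAGGTCA (SF-1), AAAGGTCA (NR4A) and TGANTCA (AP-1). AGGTCA overlaps AAGGTC, and the SF-1 and NR4A motifs contain AAGGTC followed by A, which neither marked stretch of Insl3 has. All 5 motifs had 0 matches in the windows of Insl3, Jak3, Rln1, Rxfp2 and Insl5, while 14.0% of all windows hold AGGTCA, 0.387% TCAAGGTCA, 0.463% CCAAGGTCA, 1.34% AAAGGTCA and 6.75% TGANTCA. A match is only a stretch of letters and a missing one says nothing about a factor. Rxfp1 and Insl6 were not searched.

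Values below are normalized log2 expression as deposited, and each difference is the COUP-TFII siRNA mean less the control siRNA mean on that scale. All 26836 probe sets with a gene symbol were fitted together with limma, and a call of change required a Benjamini-Hochberg adjusted p under 0.05. The call was made for 4.51% of these 26836 probe sets, with 2.92% lower and 1.59% higher in COUP-TFII siRNA cells. Their median difference was 0.01. Shares and medians of all probe sets given below refer to these 26836. Array medians lay between 7.59 and 7.60 in COUP-TFII siRNA arrays and between 7.56 and 7.57 in control siRNA arrays. The targeted transcript Nr2f2 read 8.25, 8.42 and 8.56 in COUP-TFII siRNA arrays, against 8.98, 8.97 and 9.19 in control siRNA arrays. It was thus at 64.4% of the control level (difference -0.63, SE 0.09, limma adjusted p = 0.00802), with no overlap between groups. The number of arrays limits the precision, and an exact 2-sided permutation test of 3 against 3 arrays cannot go below p = 0.1.

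Of the 6 probe sets, 1 fell, 0 rose and 5 were not called, beside 2.92% lower and 1.59% higher among all probe sets. The one that fell was Rxfp1, the relaxin receptor, which dropped to about 70% of control. The shared probe set of Insl3 and Jak3 spanned 0.06 log2 units over all 6 arrays, and its difference was close to 0. The groups did not overlap for 3 of the 6 probe sets, Rxfp1, Insl6 and Insl5, a pattern shown by 25.2% of all probe sets.

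**Figure D1:**
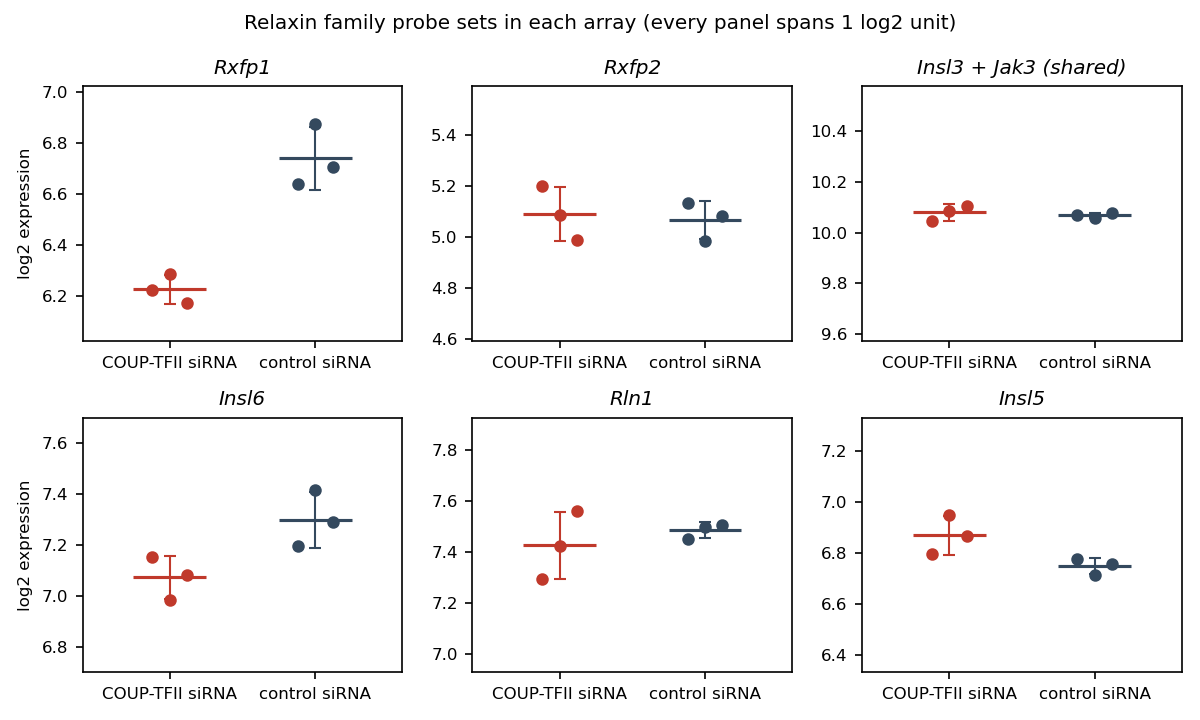
Normalized log2 expression (vertical axes) of the 6 probe sets, with a point for each of 3 arrays per group in the order of replicates 1 to 3, COUP-TFII siRNA in red on the left and control siRNA in dark blue on the right. Horizontal lines are group means, bars are SDs, and every panel spans 1 log2 unit. Rxfp1 lies at 6.17 to 6.28 in COUP-TFII siRNA arrays and at 6.64 to 6.87 in control siRNA arrays, while the shared Insl3 and Jak3 probe set is nearly flat.

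Among the receptors, Rxfp1 fell and Rxfp2 was not called. Rxfp1 (probe set 10498852, chromosome 3 band E3) read 6.22, 6.28 and 6.17 in COUP-TFII siRNA arrays, against 6.64, 6.87 and 6.71 in control siRNA arrays. Each COUP-TFII siRNA array was lower than each control siRNA array, and the gap of 0.35 between the groups exceeded the range within either group (0.11 and 0.24). The group means were 6.23 ± 0.06 with COUP-TFII siRNA and 6.74 ± 0.12 with control siRNA (SD, n = 3 each). The difference was -0.51 (SE 0.07, limma adjusted p = 0.00673), which puts the Rxfp1 signal at 70.1% of control with a 95% interval of 62.9% to 78.0%. Whether fewer cells carried the transcript or each cell carried less cannot be told apart in bulk RNA. The exact permutation p was 0.1, the smallest possible here.

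The fall of Rxfp1 was 0.51 on the log2 scale, and 0.328% of all probe sets lay at least that far below 0. By size it ranked 85 among the 783 falls called. The probe set was dim, brighter than 31.6% of the probe sets tested, and in the fifth of probe sets of like brightness 22 of 5367, or 0.41%, were called lower. Its brightness lay within the range of the lymphocyte markers (percentiles 8.47 to 48.1), and detection above background was not tested, so the percent of control is that of the probe set signal. Leaving out any 1 of the 6 arrays kept the call, with differences between -0.56 and -0.44 and limma adjusted p between 0.0105 and 0.033. In the authors' deposited table of all 35556 probe sets, Rxfp1 has a ratio of 0.651 and an unadjusted p of 0.000345, and Nr2f2 has a ratio of 0.641. In the authors' deposited table of 334 changed probe sets, Rxfp1 is listed with p = 0.0048, and among these members it is the 1 gene listed.

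Rxfp2, the INSL3 receptor (probe set 10527713, chromosome 5 band G3), read 5.20, 5.09 and 4.99 in COUP-TFII siRNA arrays, against 5.13, 4.99 and 5.08 in control siRNA arrays. The groups overlapped in part, with COUP-TFII siRNA replicate 1 above every control siRNA array. The difference was 0.02 (SE 0.07, limma adjusted p = 0.892), with a 95% interval of 91.6% to 113% of control. This was the dimmest of the 6 probe sets, brighter than 10.4% of those tested. Whether Rxfp2 is expressed in these cells at all was not tested.

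**Figure D2:**
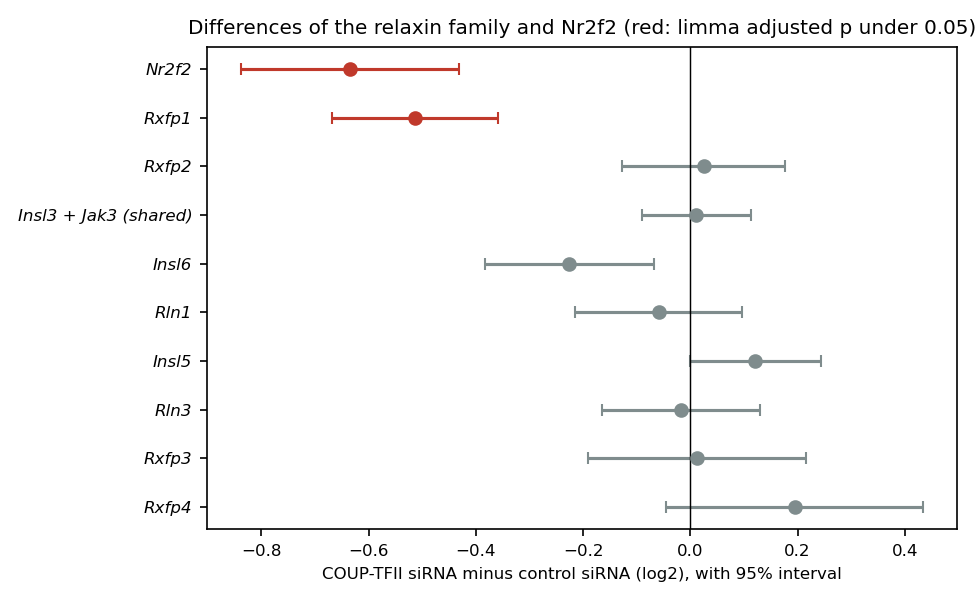
Differences between COUP-TFII siRNA and control siRNA on the log2 scale (horizontal axis) with 95% intervals from limma, for Nr2f2, the 6 probe sets and 3 further relaxin family genes. Red marks an adjusted p under 0.05, reached by Nr2f2 at -0.63 and Rxfp1 at -0.51, and the interval of Insl6 lies below 0 without passing the adjusted threshold.

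The shared Insl3 and Jak3 probe set showed no detectable difference between the groups. It read 10.04, 10.09 and 10.11 in COUP-TFII siRNA arrays, against 10.07, 10.06 and 10.08 in control siRNA arrays. The control values lay inside the range of the COUP-TFII siRNA values. Group means were 10.08 ± 0.03 with COUP-TFII siRNA and 10.07 ± 0.01 with control siRNA (SD, n = 3 each). The difference was 0.01 (SE 0.04, limma adjusted p = 0.928, exact permutation p = 0.6), and its 95% interval reached from 94.0% to 108% of control. After centring each array on its median the difference was -0.02, and it was -0.002 when COUP-TFII siRNA replicate 3 was left out, so its sign is not settled. The authors' deposited table gives a ratio of 1.01 and an unadjusted p of 0.451. The interval bounds the change of the probe set signal, and neither Insl3 nor Jak3 can be read from it alone.

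The probe set was bright, above 79.0% of those tested. Of lymphocytes, the cells best known for Jak3, 7 markers, among them Ptprc and Cd3e, had brightness percentiles between 8.47 and 48.1, with 0 called by limma and 1 at an unadjusted p under 0.05. Their summed linear signal was 619 to 672 in COUP-TFII siRNA arrays and 589 to 644 in control siRNA arrays. Brightness depends on the probes as well as on the transcript, so how Insl3 and Jak3 share the signal of their probe set was not tested. The 5 genes whose values ran most alike to this probe set over the 6 arrays, among 17827 genes with a probe set of their own, were Fcer2a, Krtap24-1, Cyb5r4, Zfp9 and Lcn3, with Pearson r between 0.973 and 0.982. Since the probe set hardly varied, the likeness rests on differences of a few hundredths between arrays, and 0 of these 5 genes were called.

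Among ligands with a probe set of their own, Insl6 came closest to a call. Insl6 (probe set 10466932, chromosome 19 band C3) read 7.15, 6.99 and 7.08 in COUP-TFII siRNA arrays, against 7.19, 7.41 and 7.29 in control siRNA arrays. The groups did not overlap, but the gap between them was 0.04, and COUP-TFII siRNA replicate 1 lay next to control siRNA replicate 1. The difference was -0.23 (SE 0.07), or 85.5% of control with a 95% interval of 76.7% to 95.4%. It did not pass the threshold (limma adjusted p = 0.111, unadjusted p = 0.0103), and 19.3% of all probe sets had an unadjusted p under 0.05. Under the 13 alternatives that tested it, adjusted p lay between 0.0743 and 0.321. The authors' deposited table gives Insl6 a ratio of 0.890 and an unadjusted p of 0.0398.

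**Figure D3:**
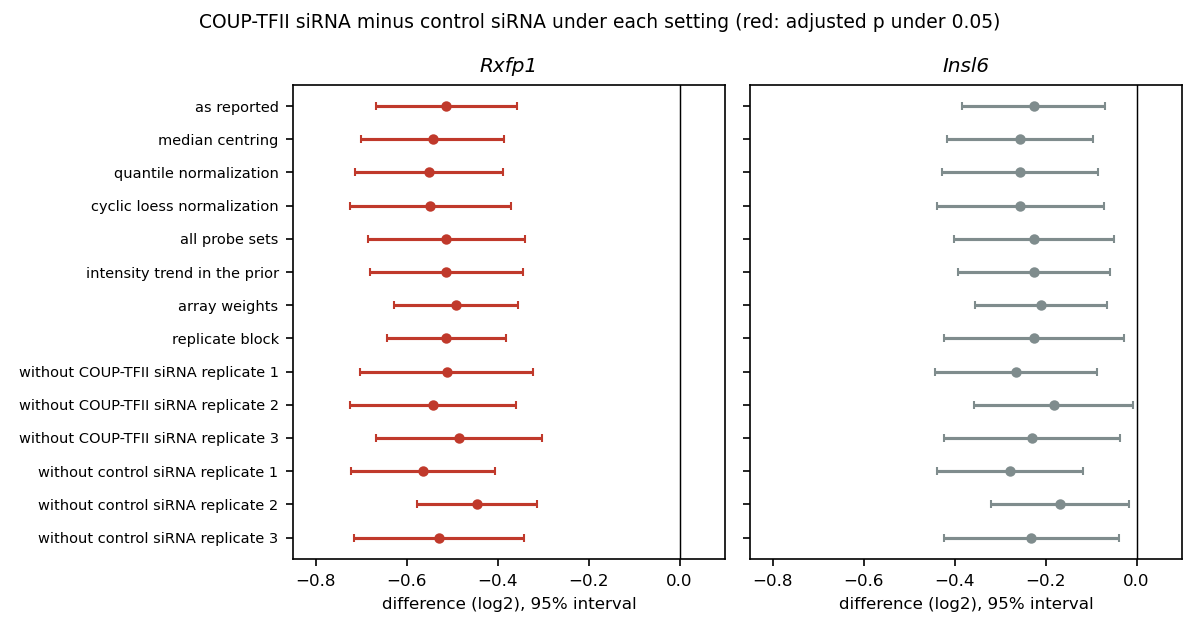
Differences of Rxfp1 (left) and Insl6 (right) between COUP-TFII siRNA and control siRNA on the log2 scale (horizontal axes) with 95% intervals, as reported and under 13 alternative settings (rows). Red marks an adjusted p under 0.05, reached by Rxfp1 in every row and by Insl6 in no row shown.

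Rln1, the relaxin gene (probe set 10466935, chromosome 19 band C1), read 7.30, 7.42 and 7.56 in COUP-TFII siRNA arrays, against 7.45, 7.50 and 7.51 in control siRNA arrays. The control values lay within the wider COUP-TFII siRNA range. The difference was -0.06 (SE 0.07, limma adjusted p = 0.70), with a 95% interval of 86.2% to 107% of control. Insl5 (probe set 10514708, chromosome 4) read 6.80, 6.95 and 6.87 in COUP-TFII siRNA arrays, against 6.78, 6.72 and 6.76 in control siRNA arrays. Here each COUP-TFII siRNA array was above each control siRNA array with a gap of 0.02, in the opposite direction to Insl6. The difference was 0.12 (SE 0.05, limma adjusted p = 0.263), with a 95% interval of 99.9% to 118% of control.

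The other measured genes of the family were not called. For Rln3, the relaxin of the brain, COUP-TFII siRNA and control siRNA arrays averaged 7.51 ± 0.08 and 7.53 ± 0.09 (SD, n = 3 each), and its difference of -0.02 (SE 0.06) had an adjusted p of 0.925 by limma. For Rxfp4, the INSL5 receptor, the means were 7.38 ± 0.03 with COUP-TFII siRNA and 7.19 ± 0.24 with control siRNA (SD, n = 3 each). Its difference was 0.19 (SE 0.11, limma adjusted p = 0.363), and control siRNA replicate 2 was lowest at 6.93. The difference was 0.07 without that array and 0.31 without control siRNA replicate 1, and neither was called. Rxfp3, the receptor of relaxin 3, differed by 0.01 (SE 0.09, limma adjusted p = 0.962).

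Of 27 measured genes through which RXFP1 and RXFP2 signal, for G proteins, adenylyl cyclases, protein kinase A and its partners, 1 rose and 0 fell, against 1.59% and 2.92% of all probe sets, and the list median was 0.02. The rise was that of Creb1, a transcription factor activated by cAMP, at 0.24 (SE 0.05, limma adjusted p = 0.0399). Gnas, the stimulatory G protein subunit of both receptors, differed by -0.06 (SE 0.04, limma adjusted p = 0.529). Gnb2 and Prkaca lie on shared probe sets and were not counted. Of 24 genes of matrix, vessels and growth factors known to respond to relaxin, 1 fell and 0 rose, with a median of 0.00. This was Tgfbr1, a TGF-beta receptor kinase, at -0.27 (SE 0.06, limma adjusted p = 0.0399).

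Around JAK3, 2 of 22 measured receptor, kinase, STAT and inhibitor genes fell and 0 rose, with a median of 0.04. Among all probe sets, 2.92% were lower and 1.59% higher. An unadjusted p under 0.05 by limma was found for 8 of the 22, against 19.3% of all probe sets. Il4ra, the interleukin 4 receptor chain that pairs with the common gamma chain, averaged 9.54 ± 0.13 with COUP-TFII siRNA and 9.89 ± 0.09 with control siRNA (SD, n = 3 each). Its difference was -0.36 (SE 0.08, limma adjusted p = 0.0376). Stat5a, a transcription factor activated by JAK kinases, fell by 0.23 (SE 0.05, limma adjusted p = 0.0369). The gamma chain gene Il2rg itself was dim, at percentile 18.2, and differed by 0.13 (SE 0.10, limma adjusted p = 0.494). 

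Among 10 transcription factors tied to the Insl3 gene in Leydig cells, 2 fell and 1 rose, against 2.92% and 1.59% of all probe sets. The list median was -0.06, although Nr2f2, the siRNA target, is 1 of the falls. The other was Esr1, the estrogen receptor gene, at -0.24 (SE 0.05, limma adjusted p = 0.0297). The rise was that of Nr0b1, encoding the repressor DAX-1, at 0.25 (SE 0.05, limma adjusted p = 0.0353). Nr5a1, encoding SF-1, differed by -0.02 (SE 0.05, limma adjusted p = 0.898), and Nr4a1, encoding NUR77, by -0.19 (SE 0.06, limma adjusted p = 0.13). Of 12 genes of testicular descent, 3 fell and 0 rose, against 2.92% and 1.59% of all probe sets. This list overlaps with these factors and has a median of 0.03. Besides Esr1 the falls were Amhr2, the receptor of anti-Mullerian hormone, at -0.48 (SE 0.05, limma adjusted p = 0.00181), and Arid5b, a DNA-binding regulator, at -0.31 (SE 0.07, limma adjusted p = 0.0466).

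These lists hold 95 different measured genes, of which 9 (9.47%) were called, against 4.51% of all probe sets. Since the genes were chosen with earlier results known, nothing is read from that share. Amhr2 and Nr2f2 kept the call whichever single array was left out. Creb1, Stat5a, Il4ra and Nr0b1 missed the threshold without any 1 of the 6 arrays, with limma adjusted p between 0.0542 and 0.131. Tgfbr1 and Arid5b missed it in 5 of the 6 cases and passed without control siRNA replicate 1 (0.0257 and 0.0357), and Esr1 missed it in 5 and passed without control siRNA replicate 2 (0.042). With 1 array left out, 2 to 4 of the 95 genes were called.

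**Figure D4:**
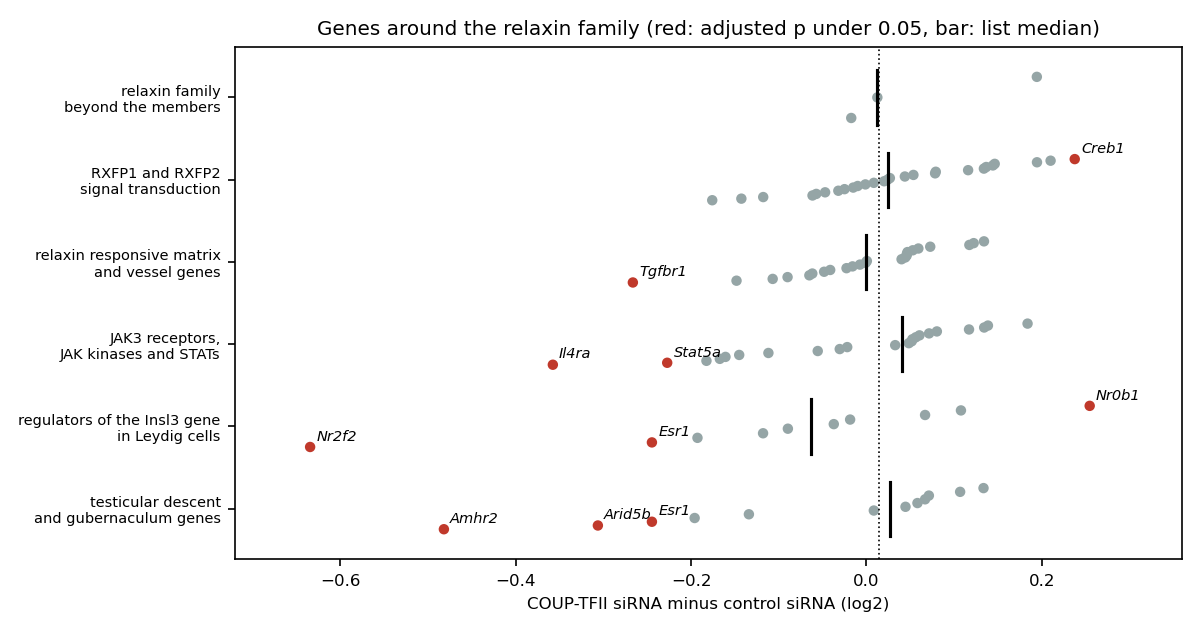
Differences between COUP-TFII siRNA and control siRNA on the log2 scale (horizontal axis) for the genes of each list (rows), a point per gene. Red marks an adjusted p under 0.05, black bars are list medians and the dotted line is the median of all probe sets at 0.01. The list medians lie between -0.06 and 0.04.

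The surroundings of both relaxin loci were read as well, using the 10 nearest genes on each side in the RefSeq gene order. Around Insl3 and Jak3, 11 genes had a probe set of their own and 0 were called, with 5 at an unadjusted p under 0.05, as were 19.3% of all probe sets. The smallest p there belonged to Zfp709, a zinc finger gene, at 0.28 (SE 0.10, limma adjusted p = 0.152), and B3gnt3, a glycosyltransferase gene next to Insl3, at -0.13 (SE 0.05, limma adjusted p = 0.164). Insl6 lies between Jak2 and Rln1, so that here too relaxin family genes sit beside a JAK kinase gene. Of 14 measured neighbours of Insl6, 3 fell and 1 rose, where 2.92% of all probe sets were lower and 1.59% higher. Its direct neighbours Jak2 and Rln1 were not called, Jak2 at -0.06 (SE 0.06, limma adjusted p = 0.686).

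Farther along, on the side of Rln1, Plgrkt, a plasminogen receptor gene, read 9.07, 9.08 and 9.12 in COUP-TFII siRNA arrays, against 9.63, 9.81 and 9.65 in control siRNA arrays. All COUP-TFII siRNA values were lower, and Plgrkt fell by 0.61 (SE 0.06, limma adjusted p = 0.00181). Next to it, Cd274, which encodes the immune checkpoint ligand PD-L1, fell by 0.50 (SE 0.07, limma adjusted p = 0.00669). Both kept the call without any single array. Ak3, a mitochondrial adenylate kinase gene on the side of Jak2, fell by 0.31 (SE 0.06, limma adjusted p = 0.02), and Ermp1, a metallopeptidase gene, rose by 0.31 (SE 0.05, limma adjusted p = 0.0164). Ak3 was no longer called when COUP-TFII siRNA replicate 1 or 2 or control siRNA replicate 1 or 3 was left out (limma adjusted p 0.0549 to 0.0870), nor Ermp1 when COUP-TFII siRNA replicate 1 or 2 or control siRNA replicate 3 was (0.0533 to 0.0714).

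**Figure D5:**
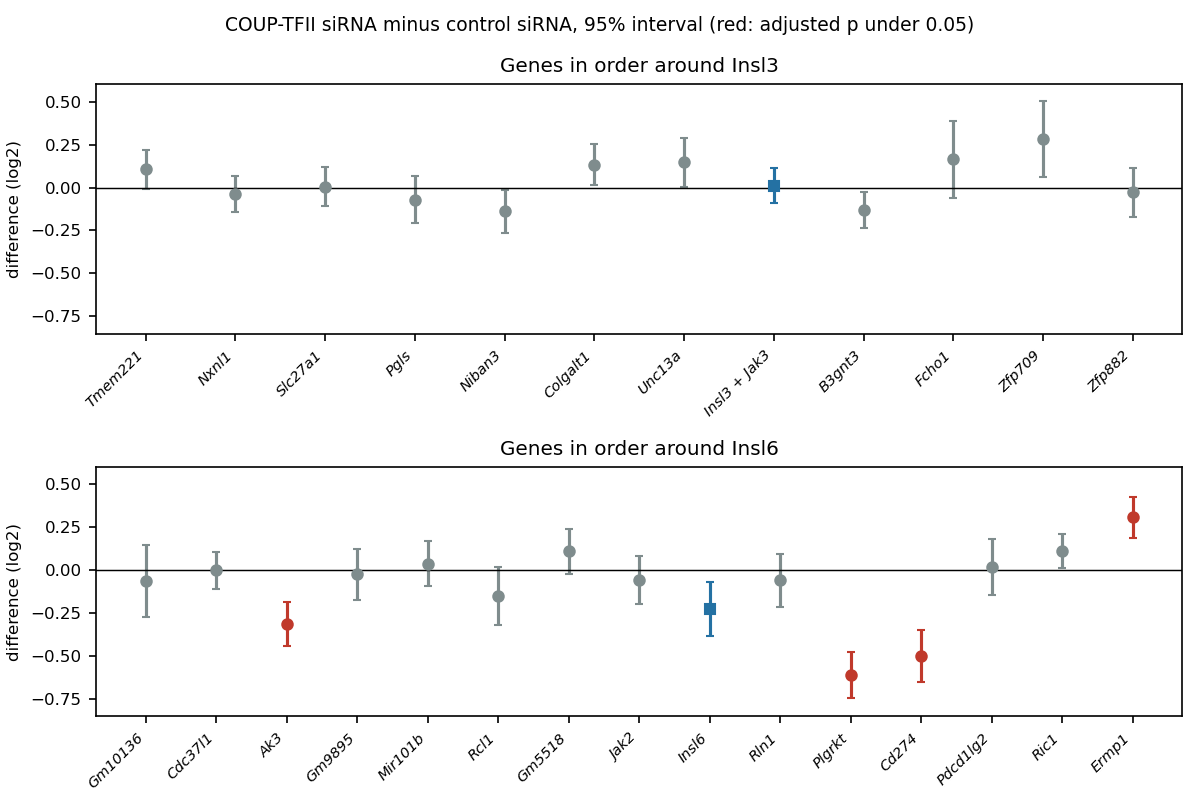
Differences between COUP-TFII siRNA and control siRNA on the log2 scale (vertical axes) with 95% intervals, for genes in chromosomal order, evenly spaced, around Insl3 (top) and Insl6 (bottom). The blue squares are the shared Insl3 and Jak3 probe set and Insl6, red marks an adjusted p under 0.05. No gene around Insl3 is red, and Ak3, Plgrkt, Cd274 and Ermp1 are red around Insl6.

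Brightness percentiles were 54.5 to 98.2 for Leydig markers and 35.4 to 70.7 for Sertoli markers. Those of peritubular and endothelial markers were 23.2 to 93.9, and those of macrophage markers 10.4 to 61.0. The lists thus overlap in brightness, and detection above background was not tested. Of 7 Leydig markers, 5 fell (Star, Cyp11a1, Hsd3b1, Lhcgr and Inha), beside 2.92% of all probe sets. These 5 fell by 0.33 to 0.97 on the log2 scale. The other two were not called, Cyp17a1 at 0.34 (SE 0.13, limma adjusted p = 0.201) in the opposite direction and Nr5a1 at -0.02. The summed linear signal of all 7 was 19202 to 19720 in COUP-TFII siRNA arrays and 24218 to 25117 in control siRNA arrays. Of 7 germ cell markers 1 fell, Ddx4 at -0.32 (SE 0.06, limma adjusted p = 0.0217), again beside 2.92% of all probe sets. The summed signal of these 7 was 754 to 795 in COUP-TFII siRNA arrays and 814 to 856 in control siRNA arrays. The germ cell markers ranged in brightness from percentile 9.03 (Sycp3) to 57.2 (Ddx4), with a median of 27.4. The part of these shifts in the lower Rxfp1 and Insl6 values was not tested. No marker of Sertoli cells (5 measured), lymphocytes (7), macrophages (5) or peritubular and endothelial cells (6) was called by limma, with 4, 1, 1 and 1 of them, in that order, at an unadjusted p under 0.05, against 19.3% of all probe sets. The 4 Sertoli markers went both ways, Sox9 at 0.22 and Fshr at 0.12, Dhh at -0.17 and Amh at -0.13 (limma adjusted p 0.175 to 0.248).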

How the data were processed

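RNA of 6 MA-10 cultures was labelled with biotin and hybridised to Affymetrix arrays, per the labels' protocols. The authors deposited a table of normalized log2 expression for 35556 probe sets (values 3.15 to 14.3), and the submitters' processing notes name Partek 7.0. How background, summarisation and normalization were handled is not given in the sources used here. That the scale is log2 follows from the values. The deposited tables of comparisons give a linear ratio, a signed fold score and an unadjusted p-value, and were only set beside the values computed here. Their p-values for Rxfp1 differ between the 2 tables, and the arrays behind each are not stated.

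Probe sets were joined to the deposited annotation by transcript ID. Of the 35556 probe sets, 25454 have 1 gene symbol, 1382 several and 8720 none. The 26836 with a symbol were fitted with limma 3.58.1 (lmFit, eBayes) in R 4.3.3, with group as the only term. The script was tested on simulated data with 50 probe sets changed at each fold. It called 8% of 1.2-fold, 62% of 1.3-fold, 96% of 1.5-fold and 98% of 2-fold changes. Calls there numbered 139, against 1209 in the arrays, so these shares need not hold for the arrays. A list gene was represented by its brightest probe set with 1 symbol, and named genes are all members, up to 4 called genes per list by smallest p, or otherwise the 2 with the smallest p, plus the 5 genes most like the Insl3 probe set by Pearson r. Genes named beyond this rule were chosen after their values were seen. Members and lists were chosen with earlier results of these data known. Alternatives were 3 other normalizations, 2 other sets of probe sets, an intensity trend, array weights, the replicate number as a block and leaving out each array. RefSeq promoters were matched by symbol for 5 of 7 members.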

Additional observations from a re-analysis of the deposited data

How the results depend on the processing

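All alternatives were planned. Rxfp1 was called as a fall under all 13 alternatives that tested it (differences -0.56 to -0.44, limma adjusted p 0.00237 to 0.0367), and Nr2f2 under all 14. Among brighter probe sets only, Rxfp1 is not tested, so 0 members were called there. The shared Insl3 and Jak3 probe set was called under 0 of 14, with differences of -0.0187 after median centring and -0.00203 without COUP-TFII siRNA replicate 3, and -0.00203 to 0.0289 when leaving out 1 array. Other values that changed sign belong to genes not called: Rxfp2 (0.0770 at most with 1 array left out, -0.00551 after median centring, -0.00237 after quantile normalization, -0.0295 without COUP-TFII siRNA replicate 1 and -0.0161 without control siRNA replicate 2), Rln1 (-0.126 to 0.00649 with 1 array left out, the upper value without COUP-TFII siRNA replicate 1) and Rln3 (-0.0628 without control siRNA replicate 2, 0.0222 without COUP-TFII siRNA replicate 3 and 0.0280 without control siRNA replicate 1). The 1209 calls among 26836 probe sets with a symbol became 436 when all 35556 were fitted, 2375 among brighter ones and 2132 with an intensity trend. These calls became 711 with the replicate block and 306 to 737 with 1 array left out. Median centring changed the split from 426 higher and 783 lower to 308 higher and 1184 lower. Calls on the pathway lists went from 9 to 2 with all 35556 probe sets fitted, 4 with the replicate block and 2 to 4 with 1 array left out. Among locus neighbours, 4 calls became 2 with all 35556 probe sets fitted and 2 to 4 with 1 array left out. Fewer arrays and more dim probe sets are part of the construction of these settings, and other causes were not tested. Deviations of same-numbered arrays of the 2 groups had r = 0.108, -0.0482 and 0.172, and those of differently numbered arrays -0.225 to 0.128. The labels state no pairing, so the numbers were not taken as pairs, and whether cultures were paired cannot be told. With the replicate block Rxfp1 stayed called (limma adjusted p = 0.0231).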

Other observations

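The pattern of Rxfp1 over the 6 arrays was shared most closely by Srxn1, Slc35a5, Mgst1, Cbr3 and Fjx1 among the 17827 genes compared, with Pearson r between 0.994 and 0.998. This comparison was added after the values were seen, and the 2 groups alone separate such genes, so r describes likeness and is no test. Srxn1, encoding sulfiredoxin, which repairs oxidised peroxiredoxins, changed by -0.47 (SE 0.06, limma adjusted p = 0.00556). Cbr3, a carbonyl reductase gene, changed by -0.72 (SE 0.08, limma adjusted p = 0.00293). Mgst1, a microsomal glutathione transferase gene, changed by -0.30 (SE 0.05, limma adjusted p = 0.0172), and the transporter gene Slc35a5 by -0.25 (SE 0.05, limma adjusted p = 0.0388). Fjx1 differed by -0.08 (SE 0.04, limma adjusted p = 0.382).

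For Rxfp1 the value table gives 70.1% of control and the authors' deposited table a ratio of 0.651, whereas for Nr2f2 the value table gives 64.4% and the authors' deposited table a ratio of 0.641.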
